A study of Mus musculus with 10 samples.

Results

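Cytochrome c (Cycs) and 8 genes that act around it in mitochondrial apoptosis or under p53 were followed in mouse hippocampal neurons: Apaf1, Casp9, Bax, Bbc3, Bcl2, Bcl2l1, Cdkn1a and Mdm2. They were taken by symbol, with no threshold on any measured value, but with earlier results of these data known. They are 9 of the 48709 genes in the count tables. All 9 had enough counts to be tested, along with 16884 genes in all. The cells were primary hippocampal cultures that received lipid nanoparticles at day 10 in vitro and gave polyadenylated RNA 48 h later. In 4 libraries the particles carried anti-miR-409-5p, which silences miR-409-5p, in 4 others anti-miR-501-3p, which silences miR-501-3p, and in 2 control libraries scramble RNA, so the nanoparticle is common to all groups. The labels give no genotype, strain, sex or age of the mice, do not say how many cultures the libraries came from, and name no untreated group. The series asks how neuronal homeostasis responds when these microRNAs, which it links to exercise, are silenced.

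In mitochondrial apoptosis, BAX and its relatives open the outer mitochondrial membrane and cytochrome c leaves the intermembrane space. Released cytochrome c binds APAF1, the complex recruits and activates caspase 9, and effector caspases follow. Inside the mitochondrion cytochrome c carries electrons between complexes of the respiratory chain. BCL2 and BCL-XL (Bcl2l1) hold BAX in check, and PUMA (Bbc3) relieves that restraint. The transcription factor p53 induces Bax, Bbc3, Apaf1, Cdkn1a and Mdm2, and MDM2 in turn marks p53 for degradation. Mature neurons restrict the steps after cytochrome c release, in part through low APAF1.

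The sequences of the 2 silenced microRNAs are shown because their seeds (bases 2 to 8, in capitals) set which transcripts each would pair with, and because the 2 seeds differ. They are taken from RefSeq on GRCm38.p6. mmu-miR-409-5p lies at chr12:109743172-109743194 on the plus strand, and mmu-miR-501-3p at chrX:7241270-7241291 on the minus strand.
mmu-miR-409-5p: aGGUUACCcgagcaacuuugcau
mmu-miR-501-3p: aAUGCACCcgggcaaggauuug

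A site was counted where the longest annotated 3' UTR of a gene held the complement of the seed, GGTAACC for miR-409-5p and GGTGCAT for miR-501-3p, or its last 6 bases followed by A. For miR-409-5p, 1489 of 14231 tested genes with a 3' UTR (10.5%) had such a site, and none of the 9 genes did. For miR-501-3p, 1932 of them (13.6%) had a site, and of the 9 genes only Casp9 did. The Casp9 match (capitals) begins at base 555 of a 3' UTR of 2289 bases.
Casp9 site for miR-501-3p: gctggcccagtGTGCATAcctggatctgg
Casp9, the initiator caspase, did not pass the test under anti-miR-501-3p. Its levels were 30.1, 26.9, 25.8 and 25.6 CPM (counts scaled to a common library size by TMM) under anti-miR-501-3p, against 28.0 and 26.5 CPM in control, and those ranges overlap. Sites outside the longest 3' UTR were not searched.

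Promoter windows are shown for Cycs and for the 3 genes whose windows held letters that resemble a p53 site. RefSeq (GRCm38.p6) gave 14 windows for the 9 genes, each with 250 bases before and 50 after an annotated start. The p53 half-site consensus stood in 8.36% of 32851 windows of this length, counted on either strand. It stood in 3 of the 14 windows: at position -201 in Bax, at -186 in Mdm2 and at -73 and -51 in the upstream start of Cdkn1a. The cAMP response element TGACGTCA stood in 1.79% of all windows and in 1 of the 14, that of Cycs at position -169. Positions count from the annotated start, matches are in capitals, and no match overlaps another of these motifs. A match is a run of letters and was not tested as a site.
Cycs, chr6:50566520-50566819, minus strand: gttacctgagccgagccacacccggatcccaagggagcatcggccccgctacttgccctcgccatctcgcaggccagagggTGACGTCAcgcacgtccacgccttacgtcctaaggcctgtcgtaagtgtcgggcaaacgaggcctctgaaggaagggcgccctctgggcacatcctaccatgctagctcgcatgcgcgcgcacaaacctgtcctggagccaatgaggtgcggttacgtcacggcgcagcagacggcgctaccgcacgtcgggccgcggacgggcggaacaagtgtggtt
Bax, chr7:45466849-45467148, minus strand: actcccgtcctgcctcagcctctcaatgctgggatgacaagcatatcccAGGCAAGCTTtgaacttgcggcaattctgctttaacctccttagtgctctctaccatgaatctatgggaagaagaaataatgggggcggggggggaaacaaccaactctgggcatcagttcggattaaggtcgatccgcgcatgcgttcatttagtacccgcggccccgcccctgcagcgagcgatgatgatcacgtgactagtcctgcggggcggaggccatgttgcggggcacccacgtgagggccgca
Mdm2, chr10:117710709-117711008, minus strand: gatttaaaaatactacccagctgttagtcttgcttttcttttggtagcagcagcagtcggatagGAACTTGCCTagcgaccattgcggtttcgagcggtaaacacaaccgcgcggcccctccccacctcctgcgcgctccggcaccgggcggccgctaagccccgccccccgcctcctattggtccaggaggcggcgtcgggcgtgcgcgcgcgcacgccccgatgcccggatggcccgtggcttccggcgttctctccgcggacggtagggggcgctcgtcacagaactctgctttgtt
Cdkn1a, chr17:29090729-29091028, plus strand: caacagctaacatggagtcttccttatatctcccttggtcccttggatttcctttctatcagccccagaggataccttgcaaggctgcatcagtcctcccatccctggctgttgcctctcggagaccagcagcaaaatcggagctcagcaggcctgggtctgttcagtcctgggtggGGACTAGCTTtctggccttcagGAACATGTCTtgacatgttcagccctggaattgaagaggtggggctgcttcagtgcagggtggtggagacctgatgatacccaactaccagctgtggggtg

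Total counts per library ran from 22254788 to 32096808 under anti-miR-409-5p, from 26441569 to 29871556 under anti-miR-501-3p and from 27288613 to 29317799 in control. The libraries of control stood apart in how counts depended on base composition. Slopes on GC content were taken from each gene's log2 level minus its mean over all libraries. These slopes are thus relative between libraries and show no absolute dependence on GC content. Per 10 percentage points, they ran from -0.10 to 0.0373 under anti-miR-409-5p, from -0.13 to 0.0085 under anti-miR-501-3p and from 0.20 to 0.26 in control. Among tested genes of 35 to 40% GC the median log2 fold change over control was 0.43 under anti-miR-409-5p and 0.49 under anti-miR-501-3p, and among those of 60 to 65% GC it was -0.22 and -0.24. Transcripts of the mitochondrial genome took 3.40 to 3.80% of counts under anti-miR-409-5p, 3.33 to 3.95% under anti-miR-501-3p and 2.59 to 2.78% in control. All 8 neuron markers were detected, with a summed level of 8208 to 8653 CPM under anti-miR-409-5p, 8119 to 8745 CPM under anti-miR-501-3p and 7726 to 7943 CPM in control. All 8 astrocyte markers were present too, at 4628 to 4887, 4451 to 4669 and 4211 to 4308 CPM in the same order of groups, so the cultures held astrocyte RNA beside that of neurons. Both sums were above control in every anti-miR library, but single markers went in both directions at an adjusted p of 0.05 (edgeR). Of the 8 neuron markers, 4 rose and 3 fell under anti-miR-409-5p, and 4 rose and 2 fell under anti-miR-501-3p. Of the 8 astrocyte markers, 4 rose and 1 fell under anti-miR-409-5p, and 3 rose and 3 fell under anti-miR-501-3p. The shares over all tested genes follow below. The part of cell types in the results below was not tested. The 8 microglia and macrophage markers summed to 14.1 to 15.8, 15.1 to 18.7 and 15.5 to 16.4 CPM, and the 6 endothelial markers to 15.3 to 17.6, 18.2 to 21.1 and 13.8 to 16.8 CPM, with Cldn5 at 0 in all anti-miR-409-5p libraries. The markers of the oligodendrocyte lineage (420 to 520, 351 to 500 and 456 to 636 CPM), of fibroblasts and mural cells (402 to 522, 512 to 638 and 439 to 625 CPM) and of proliferating progenitors (240 to 286, 194 to 262 and 213 to 286 CPM) overlapped between each anti-miR and control.

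Against control, 5 of the 9 genes passed an adjusted p of 0.05 under each anti-miR, and they were the same 5. Cycs and Bcl2 rose, while Bax, Bcl2l1 and Cdkn1a fell. Apaf1, Casp9, Bbc3 and Mdm2 did not pass. Of all tested genes, 27.8% passed under anti-miR-409-5p (15.6% higher and 12.2% lower) and 33.0% under anti-miR-501-3p (17.6% higher and 15.4% lower), by edgeR's quasi-likelihood test with Benjamini-Hochberg adjustment over 16884 genes. By overlap of single libraries, 3 of the 9 genes lay wholly above and 4 wholly below control under anti-miR-409-5p, beside 24.1% and 24.0% of tested genes (48.0% in all). Under anti-miR-501-3p 2 lay above and 4 below, beside 24.3% and 25.6% (49.9% in all). The comparisons share the 2 control libraries. Because the 9 genes were chosen with earlier results of these data known, the shares over all tested genes are a background and not a test. With fewer cells of a type in a culture or less RNA per cell, bulk counts fall alike, and the data cannot tell these apart.

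**Figure D1:**
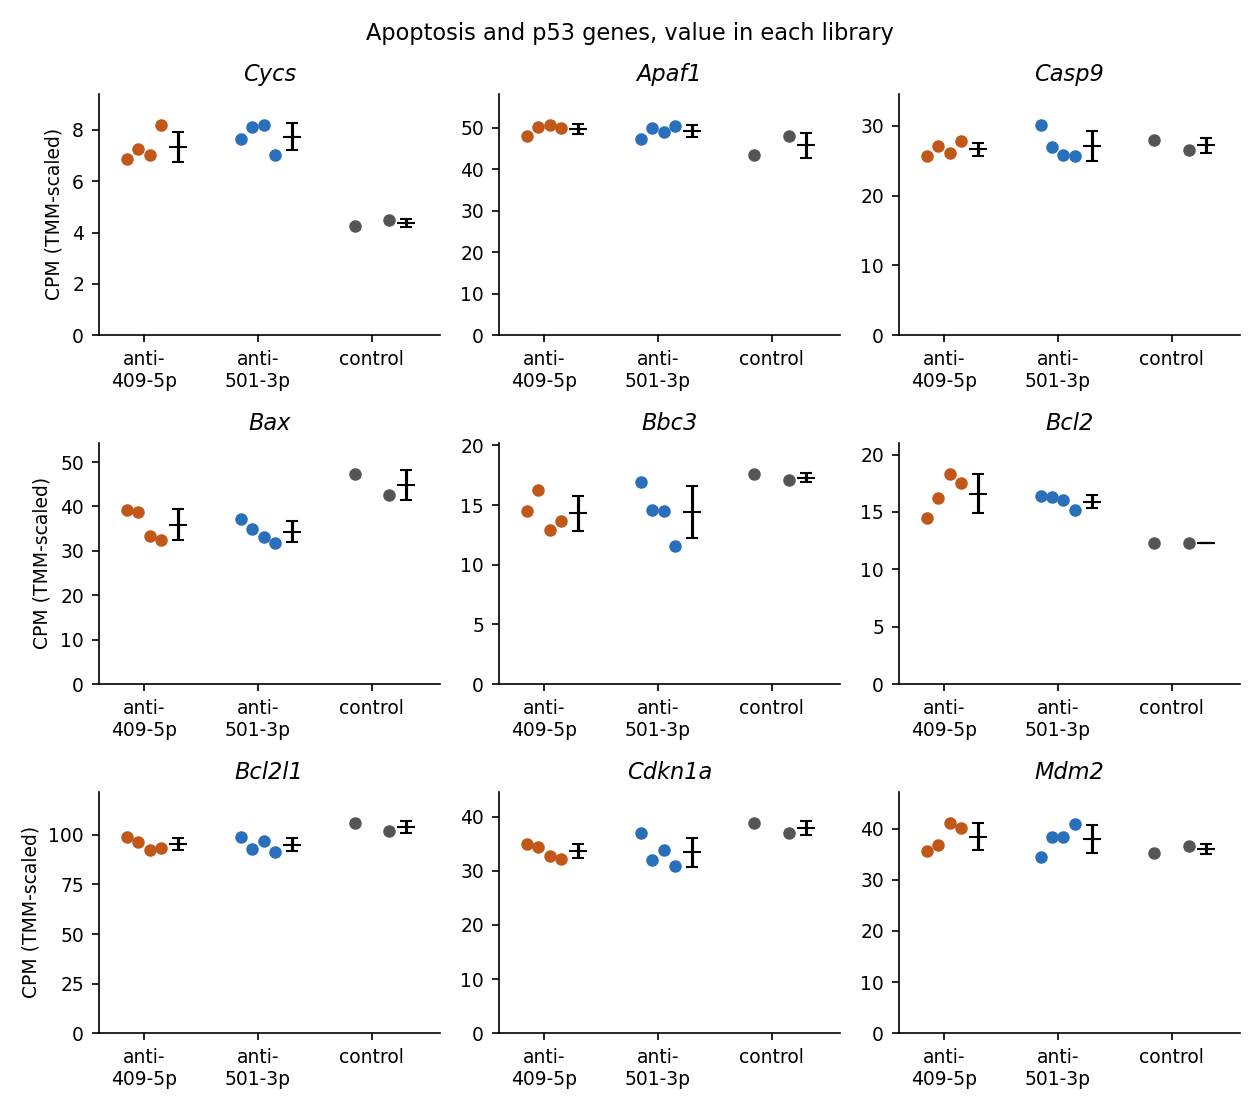
Level of each of the 9 genes in CPM (y axis, from 0) in the libraries of anti-miR-409-5p, of anti-miR-501-3p and of control. Points are libraries and the bar beside them is the mean with its SD; all 8 anti-miR libraries lie above both controls for Cycs and Bcl2, and all 8 lie below both controls for Bax.

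Cytochrome c (Cycs, ENSMUSG00000063694, mm10 chr6:50562563-50566538, minus strand) showed the largest difference of the 9 genes. Cycs was at 6.88, 7.24, 7.03 and 8.18 CPM under anti-miR-409-5p, 7.64, 8.12, 8.19 and 7.02 CPM under anti-miR-501-3p, and 4.27 and 4.48 CPM in control. Every anti-miR library stood above both controls, and the anti-miR groups overlapped each other. The rise was 1.68-fold under anti-miR-409-5p (log2 fold change 0.75 ± 0.11, SE, adjusted p = 0.000131, edgeR) and 1.77-fold under anti-miR-501-3p (0.82 ± 0.11, adjusted p = 3.43e-05). These values rest on 155 to 258 reads under anti-miR-409-5p, 207 to 239 under anti-miR-501-3p and 120 and 134 in control. The authors' deposited tables list Cycs at 0.76 (adjusted p = 2.10e-05) and 0.83 (adjusted p = 9.31e-07).

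Cycs shares stretches of sequence with many other annotated genes, so its count is uncertain. Of the 3074 windows of 50 bases in its longest transcript, 877 (28.5%) occur also in other annotated transcripts, of 76 genes. A larger share of windows is shared in front of the 3' UTR (367 of 449) than in the 3' UTR (510 of 2625). If reads with several places were dropped, most windows that still counted for Cycs lie in its 3' UTR; the sources used here do not state that step. The closest copy, the protein-coding Gm10053, shares 847 windows and had 3 to 8 reads under anti-miR-409-5p, 3 to 10 under anti-miR-501-3p and 11 and 12 in control. These raw counts were few and were lower under the anti-miRs, with no scaling and no test. If reads with several places were dropped, few reads could count for this copy. Its counts therefore cannot show whether reads of copies entered the Cycs count. The testis form of cytochrome c, Cyct, had too few counts to be tested.

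With a GC content of 40.8%, Cycs lies on the side where genes were on the whole higher under the anti-miRs. Tested genes of 40 to 45% GC had a median log2 fold change of 0.21 under anti-miR-409-5p (quartiles 0.08 and 0.33) and 0.23 under anti-miR-501-3p (0.10 and 0.37). With the trend on GC content and length removed in each library, Cycs still passed, at 0.47 under anti-miR-409-5p (adjusted p = 0.00563, edgeR) and 0.51 under anti-miR-501-3p (adjusted p = 0.00217). That correction left 7.45% and 10.1% of tested genes past the threshold.

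**Figure D2:**
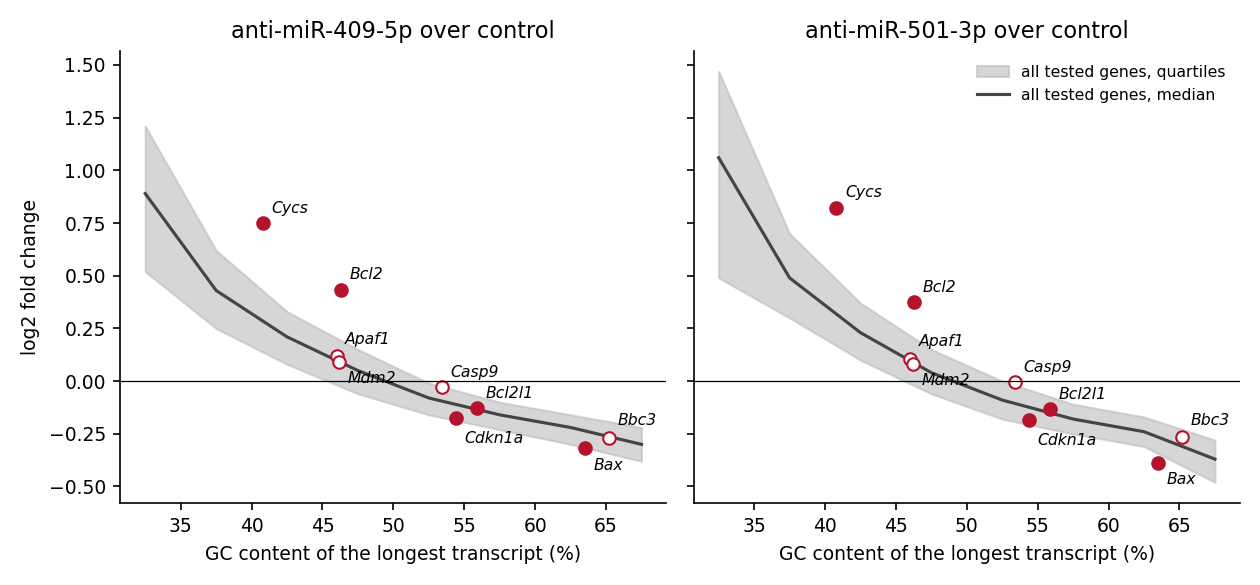
Log2 fold change over control (y axis) against GC content of the longest transcript (x axis, percent), for each anti-miR. The line and band are the median and quartiles of all tested genes in bins of 5 percentage points. Red points are the 9 genes, filled where adjusted p is below 0.05. Cycs and Bcl2 lie above the band, while Bcl2l1 lies inside it. Bax was at -0.32 and -0.39, beside lower quartiles of -0.30 and -0.31 for genes of 60 to 65% GC.

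Other genes of cytochrome c biology did not rise as a group. Of 12 tested genes for heme attachment to cytochrome c, its import or its electron-transfer partners, 1 rose and 5 fell under anti-miR-409-5p, and 1 rose and 4 fell under anti-miR-501-3p. Among all tested genes, 15.6% rose and 12.2% fell in the first comparison, and 17.6% rose and 15.4% fell in the second. The median of these 12 was a log2 fold change of -0.12 under anti-miR-409-5p and -0.14 under anti-miR-501-3p, beside -0.01 for all tested genes in each comparison. Hccs, which attaches heme to cytochrome c, was the gene that rose (0.31 and 0.40). Cyc1, the cytochrome subunit that passes electrons to cytochrome c, fell by 0.25 and 0.30 on the log2 scale. Subunits of the oxidase that takes electrons from it fell too, Cox6b1 by 0.24 and 0.26, and Cox4i1 by 0.19 and 0.20. Cox7c fell by 0.46 under anti-miR-409-5p and was at -0.30 under anti-miR-501-3p, where it did not pass. With the GC and length trend removed, no gene of this list rose, and 5 and 4 were lower, with Cyc1 and Cox4i1 no longer among them and Cox6b1 and Cox7c lower in both.

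Of 12 genes for cristae shape, mitochondrial division and the outer membrane channel, 3 rose and 2 fell under anti-miR-409-5p, and 4 rose and 2 fell under anti-miR-501-3p. These counts stand beside the shares of all tested genes given above. Yme1l1, an inner membrane protease, rose by 0.46 and 0.52, and Dnm1l, which divides mitochondria, by 0.33 and 0.36. Opa1, which holds cristae junctions tight, rose by 0.20 in both. Fis1, an outer membrane fission adaptor, fell by 0.28 and 0.30. Without the trend, none of these 4 passed in either comparison, and the list had 0 higher and 3 lower, and 1 higher and 4 lower. Of 4 other proteins released from mitochondria, Endog, a nuclease, fell by 0.52 and 0.50, and the other 3 did not pass. Endog lost its call without the trend, at -0.22 (adjusted p = 0.365, edgeR) and -0.16 (adjusted p = 0.505).

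BCL2-family genes moved in both directions. Bcl2, the founding survival protein (ENSMUSG00000057329, chr1:106538178-106714274, minus strand), was at 14.5, 16.2, 18.3 and 17.5 CPM under anti-miR-409-5p, 16.4, 16.3, 16.0 and 15.2 CPM under anti-miR-501-3p, and 12.3 and 12.3 CPM in control. All anti-miR libraries were above both controls. Bcl2 rose 1.35-fold under anti-miR-409-5p (0.43 ± 0.085, adjusted p = 0.00136, edgeR) and 1.30-fold under anti-miR-501-3p (0.38 ± 0.085, adjusted p = 0.00280). At 46.3% GC, the median gene of 45 to 50% GC stood at 0.05 and 0.04, and with the trend removed Bcl2 was at 0.31 (adjusted p = 0.0136) and 0.26 (adjusted p = 0.0351). With a surrogate variable in the fit Bcl2 did not pass, at 0.31 (adjusted p = 0.0853) and 0.23 (adjusted p = 0.390). Of the exon bases of Bcl2, 6.09% overlap an antisense gene, D630008O14Rik, which had at most 1 read in any library.

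Bax, the pore-forming effector (ENSMUSG00000003873, chr7:45461697-45466898, minus strand), was at 39.2, 38.8, 33.3 and 32.5 CPM under anti-miR-409-5p, 37.2, 35.0, 33.1 and 31.8 CPM under anti-miR-501-3p, and 47.3 and 42.6 CPM in control. All anti-miR libraries were below both controls, and control replicate 1 was the highest of all. Bax fell to 0.801 of control under anti-miR-409-5p (-0.32 ± 0.080, adjusted p = 0.00915, edgeR) and to 0.763 of control under anti-miR-501-3p (-0.39 ± 0.080, adjusted p = 0.00211). Of the exon bases of Bax, 12.2% overlap another gene on the same strand, Gm45808, which had 0 reads in every library. How reads in that overlap were counted is not stated, which leaves the level of Bax less certain. Bax has 63.5% GC, and with the trend removed it was at -0.03 (adjusted p = 0.841, edgeR) and -0.06 (adjusted p = 0.494). Without control replicate 1 it also did not pass, at -0.23 (adjusted p = 0.183) and -0.30 (adjusted p = 0.0727).

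Bcl2l1, which encodes BCL-XL (ENSMUSG00000007659, chr2:152780668-152831728, minus strand), was at 99.1, 96.4, 92.6 and 93.5 CPM under anti-miR-409-5p, 98.9, 93.0, 97.0 and 91.6 CPM under anti-miR-501-3p, and 106 and 102 CPM in control. The groups did not overlap, but the gap to the lower control was small. Bcl2l1 was at 0.914 of control (-0.13 ± 0.044, adjusted p = 0.0368, edgeR) and 0.911 of control (-0.13 ± 0.044, adjusted p = 0.0265). Without the trend it was at 0.02 in both comparisons, the other direction, with adjusted p of 0.835 and 0.769. The call was lost without either control, in the first comparison also without replicate 2, 3 or 4 of anti-miR-409-5p and without replicate 2 of anti-miR-501-3p, and in the second without replicate 2 or 4 of anti-miR-501-3p (log2 fold changes of -0.15 to -0.087 and -0.16 to -0.093 over all libraries left out in turn, with adjusted p of up to 0.379 and 0.324). The authors' deposited tables give it adjusted p of 0.0858 and 0.0555.

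Bbc3, which encodes PUMA (ENSMUSG00000002083, chr7:16308393-16318205, plus strand), was at 14.5, 16.3, 12.9 and 13.7 CPM under anti-miR-409-5p, 16.9, 14.6, 14.5 and 11.6 CPM under anti-miR-501-3p, and 17.6 and 17.1 CPM in control. All 8 anti-miR libraries were below both controls, but the spread among them was wide. The log2 fold change was -0.27 ± 0.12 in each comparison (adjusted p = 0.0991 under anti-miR-409-5p and 0.0902 under anti-miR-501-3p, edgeR). The authors' deposited table for anti-miR-409-5p gives it an adjusted p of 0.0482, and that for anti-miR-501-3p 0.0765. Of the 9 genes it has the highest GC content, 65.2%, and with the trend removed it was at 0.03 and 0.07.

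Per unit of exon length, the balance of Bcl2 to Bax was higher with either anti-miR than with scramble RNA. The ratio of Bcl2 to Bax in TPM (reads per exon base, scaled to a fixed sum per library) was 0.0635, 0.0721, 0.0949 and 0.0924 under anti-miR-409-5p, 0.0757, 0.0800, 0.0830 and 0.0820 under anti-miR-501-3p, and 0.0447 and 0.0497 in control. No anti-miR library overlapped control. Bax transcripts nevertheless outnumbered those of Bcl2 in all 10 libraries, whereas Bcl2l1 stood near Bax, at 0.917 ± 0.0656 of it under anti-miR-409-5p, 0.956 ± 0.0498 under anti-miR-501-3p and 0.800 ± 0.0368 in control (SD). These ratios combine the gene values above, were not corrected for the trend on GC content and carry no test of their own. Bcl2 has 46.3% GC and Bax 63.5%. With the trend removed, the log2 fold changes were 0.31 and 0.26 for Bcl2. Those of Bax were -0.03 and -0.06, and neither passed.

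Among the other BCL2-family genes, both other pore-formers fell. Bok fell by 0.38 under anti-miR-409-5p and by 0.44 under anti-miR-501-3p on the log2 scale, and Bak1 by 0.24 and 0.33, and neither passed with the trend removed. Mcl1, a short-lived survival protein, rose by 0.15 (adjusted p = 0.0212, edgeR) and 0.17 (adjusted p = 0.0108), and it also passed with the trend removed (0.14 and 0.15). The survival gene Bcl2l2 did not pass, other than with the trend removed under anti-miR-501-3p (0.15), and 4 others had too few counts. Of 8 tested BH3-only genes, whose products bind and oppose survival proteins or activate the pore-formers, 2 rose and 1 fell under anti-miR-409-5p, and 4 rose and 1 fell under anti-miR-501-3p. Over all tested genes, 27.8% and 33.0% passed in either direction. Pmaip1, which encodes NOXA, rose by 0.35 and 0.51, and Bnip3l, a mitophagy receptor, by 0.36 and 0.46, while Bad fell by 0.20 and 0.24. With the trend removed Bnip3l passed under anti-miR-501-3p alone (0.20, adjusted p = 0.00244), and Pmaip1 and Bad passed in neither comparison. Hrk, a BH3-only gene of neurons, was at 0.09 and 0.11 as counted, and passed under anti-miR-501-3p alone. It was the 1 gene of the list past the threshold in both comparisons with the trend removed (0.13, adjusted p = 0.0265, edgeR, and 0.17, adjusted p = 0.00297).

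**Figure D3:**
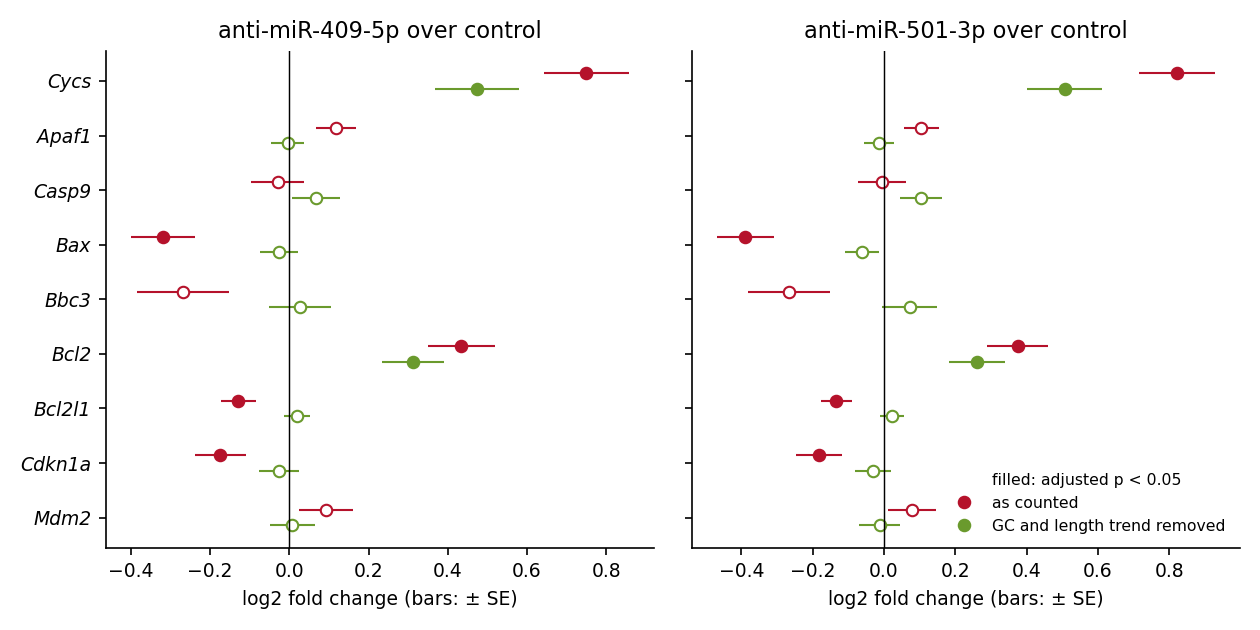
Log2 fold change over control with its SE (x axis) for the 9 genes, for each anti-miR, from the counts as they are (red) and with the trend on GC content and length removed (green); filled points have an adjusted p below 0.05. Cycs and Bcl2 are filled in both colours, and the 3 genes that fell lie between -0.06 and 0.02 in green.

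The apoptosome genes differed little. Apaf1, the scaffold that cytochrome c activates (ENSMUSG00000019979, chr10:90989311-91082770, minus strand), was at 47.9, 50.2, 50.6 and 49.8 CPM under anti-miR-409-5p, 47.3, 50.0, 49.0 and 50.3 CPM under anti-miR-501-3p, and 43.5 and 47.9 CPM in control. The anti-miR-409-5p libraries lay above both controls, the lowest by less than 0.1 CPM, and the anti-miR-501-3p libraries overlapped control. The log2 fold changes, 0.12 ± 0.050 (adjusted p = 0.0847, edgeR) and 0.10 ± 0.049 (adjusted p = 0.115), did not pass.

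Casp9 (ENSMUSG00000028914, chr4:141793612-141815976, plus strand) was at 25.6, 27.1, 26.1 and 27.8 CPM under anti-miR-409-5p, beside the anti-miR-501-3p and control values given with its seed match. All 3 groups overlapped. The log2 fold change was -0.03 ± 0.067 (approximate 95% interval -0.16 to 0.10) under anti-miR-409-5p and -0.01 ± 0.067 (-0.14 to 0.13) under anti-miR-501-3p.

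Of 5 tested caspase inhibitors, 2 rose and none fell in each comparison, while 15.6% and 17.6% of all tested genes rose. Xiap, which binds caspases directly, rose by 0.55 and 0.66 and Birc2 by 0.15 and 0.22. Without the trend Xiap was at 0.01 and 0.04 and Birc2 at -0.03 and 0.02, and none of the 4 values passed.

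Cdkn1a, a p53 target that encodes an inhibitor of cyclin-dependent kinases (ENSMUSG00000023067, chr17:29090976-29100727, plus strand), was at 34.9, 34.4, 32.8 and 32.1 CPM under anti-miR-409-5p, 36.9, 32.0, 33.9 and 30.8 CPM under anti-miR-501-3p, and 38.8 and 36.9 CPM in control. The groups did not overlap, although the highest anti-miR-501-3p library and the lower control both round to 36.9 CPM. Cdkn1a was at 0.886 of control (-0.17 ± 0.064, adjusted p = 0.0496, edgeR) and 0.881 of control (-0.18 ± 0.064, adjusted p = 0.0352). Both are close to the threshold, and leaving out libraries in turn kept 3 and 4 of 10 calls (adjusted p of up to 0.386 and 0.330, both without control replicate 1). The calls were lost without either control, in the first comparison also without replicate 2, 3 or 4 of anti-miR-409-5p and without replicate 2 or 3 of anti-miR-501-3p. In the second they were lost also without replicate 2 of anti-miR-409-5p and without replicate 2, 3 or 4 of anti-miR-501-3p. The authors' deposited tables give adjusted p of 0.0725 and 0.0739, and without the trend on GC content Cdkn1a was at -0.03 in both. Of its exon bases, 7.68% overlap a gene on the other strand that the count tables do not list, and the library kit does not mark strand.

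Mdm2, the ubiquitin ligase of p53 (ENSMUSG00000020184, chr10:117688875-117710758, minus strand), was at 35.6, 36.8, 41.1 and 40.2 CPM under anti-miR-409-5p, 34.5, 38.3, 38.4 and 41.0 CPM under anti-miR-501-3p, and 35.3 and 36.7 CPM in control. Both anti-miR groups overlapped control. The log2 fold change was 0.09 ± 0.068 (adjusted p = 0.332, edgeR) and 0.08 ± 0.068 (adjusted p = 0.402). Of the 3 genes with a p53 half-site in the window, Bax and Cdkn1a thus fell as counted and Mdm2 did not pass. With the GC and length trend removed, Bax (-0.03 and -0.06) and Cdkn1a (-0.03 in both) did not pass either.

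The wider p53 lists moved in both directions. Of 20 tested genes for p53 and its regulators, 4 rose and 1 fell in each comparison. Mdm4, a partner of MDM2, rose by 0.29 and 0.28, and the ubiquitin ligase Cop1 by 0.41 and 0.36. The DNA damage kinases Atm (0.26 and 0.19) and Atr (0.26 and 0.32) rose as well, and Ppp1r13b fell by 0.14 and 0.13. Once the trend was removed none of the 4 was higher, and Cop1 was lower under anti-miR-501-3p (-0.27, adjusted p = 0.0440, edgeR). Trp53 itself, chosen for naming after its values were seen, was at -0.13 (adjusted p = 0.249, edgeR) and -0.12 (adjusted p = 0.265).

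Of 32 other p53 target genes, 4 rose and 2 fell under anti-miR-409-5p, and 4 rose and 4 fell under anti-miR-501-3p. In either direction, 27.8% and 33.0% of all tested genes passed in the same comparisons. The median log2 fold change of the 32 was close to that of all tested genes, -0.00 and -0.04 beside -0.01. Trp53inp1, a stress-response partner of p53, rose by 0.59 and 0.62, Rrm2b, a ribonucleotide reductase subunit, by 0.51 and 0.60, and Ccng1, a cyclin, by 0.25 and 0.36. Pmaip1, counted above with the BH3-only genes, is the fourth. Fdxr (-0.39) and Cd82 (-0.47) fell under anti-miR-409-5p, and Gtse1 (-0.62), Phlda3 (-0.52), Aen (-0.23) and Plk3 (-0.24) fell under anti-miR-501-3p. Each had the same direction in the other comparison without passing. Fdxr was at -0.28 and Cd82 at -0.36 under anti-miR-501-3p. Under anti-miR-409-5p, Gtse1 was at -0.24, Phlda3 at -0.41, Aen at -0.14 and Plk3 at -0.16. With the trend removed, Trp53inp1 passed in both comparisons (0.19 and 0.16), Rrm2b under anti-miR-501-3p alone (0.20), and Ccng1 in neither. Of the genes that fell, Gtse1 (-0.49, adjusted p = 0.0276, edgeR) and Aen (-0.17, adjusted p = 0.0207) still passed under anti-miR-501-3p, and Fdxr, Cd82, Phlda3 and Plk3 lost their calls.

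**Figure D4:**
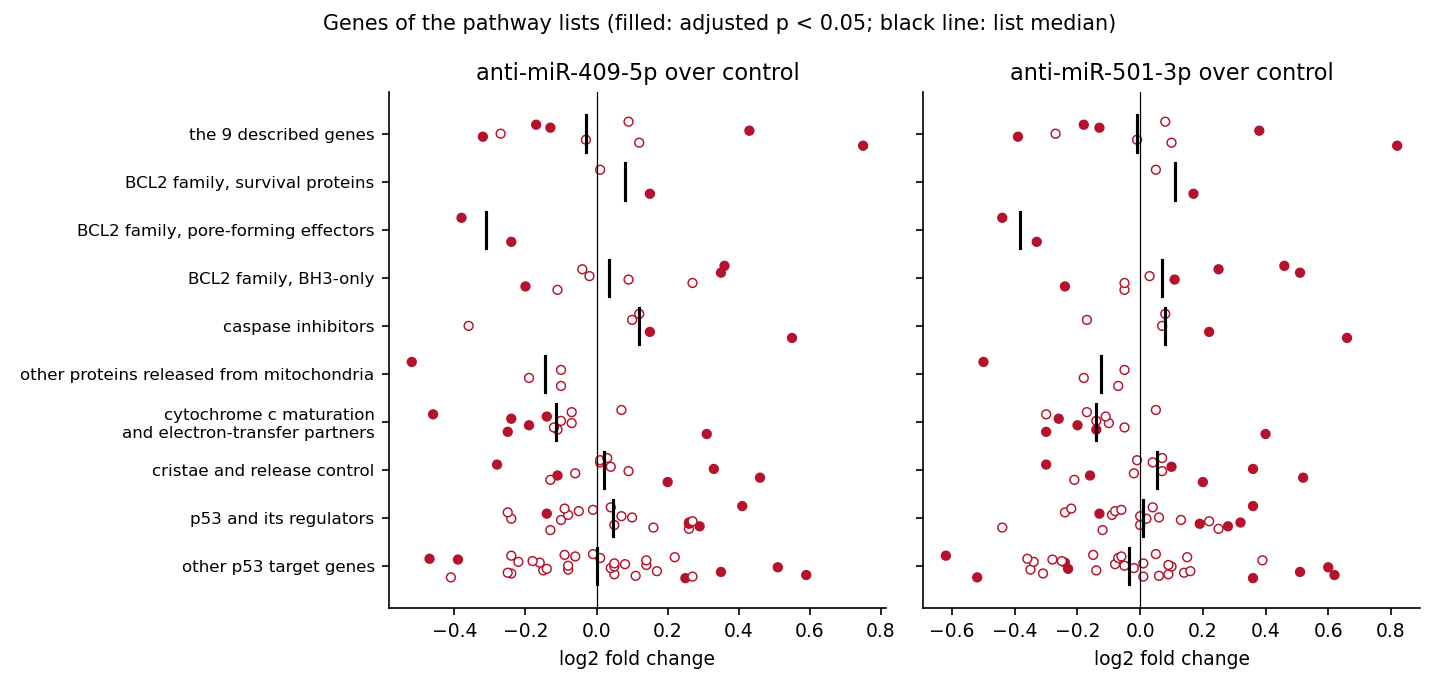
Log2 fold change over control (x axis) of each tested gene in the 9 described genes and 9 of the pathway lists (rows), for each anti-miR. Filled points have an adjusted p below 0.05 and the black line is the median of the list; both pore-forming effectors lie below 0, while the p53 target genes spread to both sides of 0.

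Levels per length spread widely over the 9 genes. In control, Bax (123 TPM, percentile 90.5 of tested genes) and Bcl2l1 (98.0 TPM, percentile 87.6) were highest. Cdkn1a (45.9), Bbc3 (35.1), Mdm2 (30.5), Casp9 (22.6) and Apaf1 (21.8 TPM) followed, with overlap between the last pair alone. Bcl2 (5.78 TPM, percentile 32.6) and Cycs (5.53 TPM, percentile 31.9) were lowest.

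Bax and Bcl2l1 ranked first and second in all 3 groups, and the order below them differed in part. Mdm2 stood above Bbc3 under anti-miR-409-5p (31.4 against 28.1 TPM) and under anti-miR-501-3p (31.0 against 28.1 TPM), with overlap of their libraries, and below it in control (30.5 against 35.1 TPM). Apaf1 stood above Casp9 under anti-miR-409-5p (22.9 against 21.3 TPM) and under anti-miR-501-3p (22.6 against 21.6 TPM), and below it in control, with overlap in all but the first. Cycs averaged 8.96 ± 0.653 TPM under anti-miR-409-5p, 9.42 ± 0.646 TPM under anti-miR-501-3p and 5.53 ± 0.162 TPM in control (SD, n = 4, 4 and 2). Bcl2 averaged 7.55 ± 0.707 TPM under anti-miR-409-5p, 7.21 ± 0.288 TPM under anti-miR-501-3p and 5.78 ± 0.0175 TPM in control. Cycs was thus above Bcl2 under both anti-miRs and below it in control, without overlap of the libraries, but the control gap is small and the shared windows of Cycs leave its level uncertain. Bax averaged 94.9 TPM (85.1 to 105) under anti-miR-409-5p and 90.1 TPM (83.3 to 99.1) under anti-miR-501-3p, against 123 TPM (116 to 130) in control, and its libraries overlapped those of Bcl2l1 under both anti-miRs but not in control. The order of Bax and Bcl2l1 depends on the length used: over the longest transcript, Bcl2l1 was at 121, 120 and 135 TPM and Bax at 106, 101 and 136 TPM under anti-miR-409-5p, under anti-miR-501-3p and in control.

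**Figure D5:**
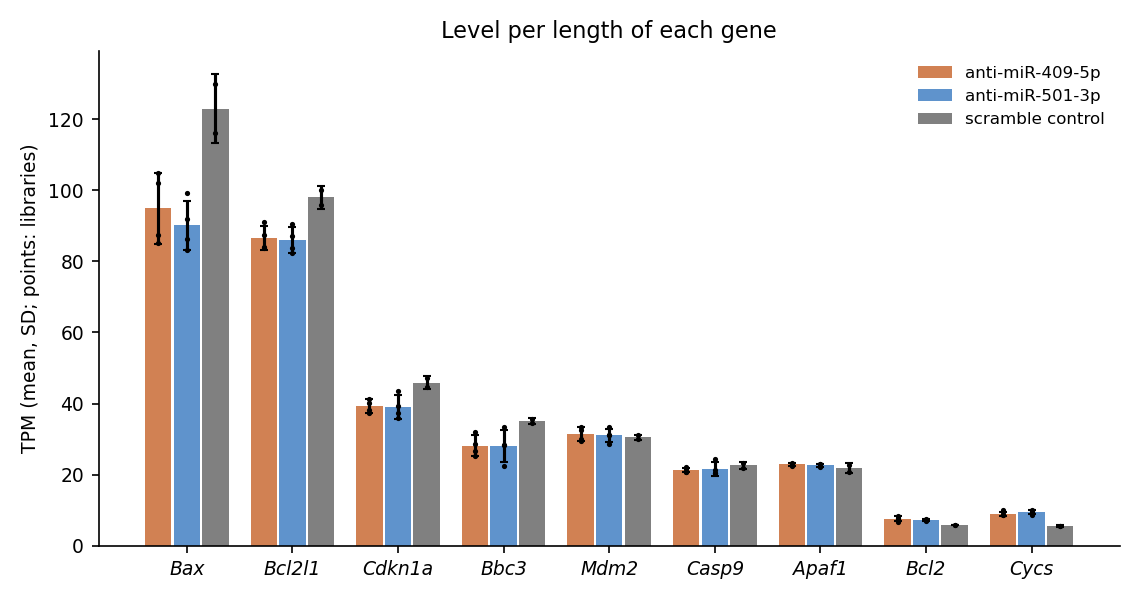
Level per exon length in TPM (y axis, from 0) of the 9 genes, ordered by their level in control, as mean with SD for anti-miR-409-5p, anti-miR-501-3p and control; points are libraries. Bax and Bcl2l1 are the highest pair and Bcl2 and Cycs the lowest pair in every group.

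The 2 anti-miRs could not be told apart on these genes. None of the 9 genes passed between them by edgeR, 0 had an unadjusted p under 0.05, and for all 9 the groups overlapped (3.47% of tested genes had groups that did not). In this comparison 0 of all 16884 tested genes passed (0%), 992 had an unadjusted p under 0.05, and DESeq2 called 3. Other settings called more genes, none of them among the 9. They called 42 with all genes with a count kept and 252 with the replicate number as a block. With that block and the GC and length trend removed it was 189. The log2 differences of anti-miR-409-5p over anti-miR-501-3p ran from -0.07 to 0.07. That of Cycs was -0.07 ± 0.080 (approximate 95% interval -0.23 to 0.08), that of Bcl2 0.06 ± 0.067 (-0.07 to 0.19) and that of Bax 0.07 ± 0.068 (-0.06 to 0.20). The intervals leave room for differences of up to 0.23 on the log2 scale in these 3 genes.

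Across the 10 libraries several of the 9 genes ran together, described here with no test because the libraries hold 3 groups. Bax and Bcl2l1 ran together (Pearson r of log2 CPM 0.92), as did Bcl2l1 and Cdkn1a (0.96) and Bbc3 and Cdkn1a (0.90). Cycs ran with Bcl2 (0.88) and against Bax (-0.83). The genes outside the list whose levels ran closest to Cycs were Rbm12 (0.986), Prkaa2 (0.986) and March6 (0.985), of 42.0, 40.7 and 44.7% GC. Those closest to Bcl2 were Kdm1b (0.983), Sri (0.974) and Kbtbd2 (0.974), and those closest to Bax were Adgrb1 (0.992), Wsb2 (0.992) and Ppp1r16a (0.990). For Bcl2l1 they were Rtn4r (0.985), Mvk (0.984) and Ube2o (0.983), and for Cdkn1a Gpsm1 (0.975), Mknk2 (0.973) and Prmt1 (0.972). Bbc3 ran closest to Cd63 (0.961), Tmem109 (0.960) and E2f1 (0.954), Apaf1 to Zfp811 (0.967), Rragd (0.959) and Megf10 (0.958), Mdm2 to Afdn (0.953), Lmo7 (0.949) and Jak1 (0.943), and Casp9 to Amotl1 (0.955), Zfp783 (0.848) and Synj2 (0.835). The libraries share the difference between the anti-miRs and control and the trend on GC content, so a high r does not set these genes apart from many others.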

How the data were processed

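Polyadenylated RNA of primary mouse hippocampal cultures was sequenced in 10 libraries with single-end reads of 50 bp. The deposited counts are raw counts per gene, 1 table per library, made per the submitters' processing notes with STAR 2.5.2b and featureCounts (Subread 1.5.1) on mm10, beside FastQC 0.11.5; annotation release, strand setting and treatment of reads with several places are not given in the sources used here. The authors deposited 2 comparison tables that hold log2 fold changes, p-values and a test score, of 17645 and 17722 genes, 5137 and 4123 of them without an adjusted p. Its deposited signal columns per library equal the counts divided by 1 factor per library (relative spread at most 1.42e-10).

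Identifiers were matched to symbols with the mm10 annotation (48349 of 48709). Genes were kept by filterByExpr (16884), scaled by TMM and tested with edgeR 4.0.16 (R 4.3.3; quasi-likelihood, robust, two-sided) in 1 fit of 10 libraries and 3 groups, with Benjamini-Hochberg adjustment over all tested genes at 0.05. CPM used a prior count of 2 on the log2 scale alone, and TPM used the union of exons. To remove the GC and length trend, splines (5 degrees of freedom) were fitted per library to genes above a mean log2 CPM of 1, and the fit became an offset; such an offset can take out true differences too. Alternatives were DESeq2 1.42.0, other scalings and filters, a surrogate variable (sva 3.50.0), the replicate number as a block and leaving out each library. Replicates of a group differed by more than sampling noise (chi-square per degree of freedom 1.59 to 10.9 over 13 pairs). Nothing in the labels says that libraries came from separate cultures, so p-values measure the spread between libraries, which may be technical. The 9 genes, the 10 pathway lists and the 7 marker lists were chosen with earlier results of these data known. Genes named from a pathway list are up to 4 called genes of smallest p per comparison, and any other gene named from them was chosen after its values were seen; for likeness, the 3 genes of highest r with a mean log2 CPM of at least 1. Approximate intervals are the estimate ± 1.96 SE. Sequences came from RefSeq (GRCm38.p6); protein sequences were not used here, and the list of other caspases is not reported here.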

Additional observations from a re-analysis of the deposited data

How the results depend on the processing

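Cycs passed in both comparisons with control under all 21 alternatives (log2 fold change 0.47 to 0.79 under anti-miR-409-5p and 0.51 to 0.87 under anti-miR-501-3p). Bcl2 passed in 20 and 19 of 21; it missed with a surrogate variable in both, and with the replicate block and GC correction together under anti-miR-501-3p. Bax passed in 17 of 21 in each comparison, Bcl2l1 in 9 and 14, and Cdkn1a in 7 and 9; Bbc3 passed in 5 and 2, Apaf1 in 3 and 1, and Casp9 and Mdm2 in 0. The number of the 9 genes called under anti-miR-409-5p was 3 by DESeq2, 2 with the GC and length trend removed, 2 with that and the replicate block, 1 with a surrogate variable, and 2 to 6 with a library left out. Under anti-miR-501-3p it was 2, 1 and 1 for the last 3 of these settings, and 2 to 6 with a library left out. Without control replicate 1, Bax, Bcl2l1 and Cdkn1a passed in neither comparison, and the number of controls, 2, limits these calls; at 120 to 258 reads a library, depth limits Cycs. All genes called under anti-miR-409-5p numbered 1258 with the trend removed, 1297 with the block too, 936 with a surrogate variable and 1302 to 5111 with a library left out; under anti-miR-501-3p 1707, 1834, 692 and 1800 to 6075. Between the anti-miRs, 3 genes were called by DESeq2, 42 with all genes kept, 1 with the trend removed, 11 with a surrogate variable, 1 with these 2 groups alone and 0 to 1 with a library left out. Without anti-miR-409-5p replicate 3 or 4, or without anti-miR-501-3p replicate 2, 3 genes passed under anti-miR-409-5p, and 3 passed under anti-miR-501-3p without its replicate 2 or 4. Upper-quartile scaling and total counts gave 2233 higher and 3074 lower, and 2193 and 3209, under anti-miR-409-5p, against 2634 and 2062 with TMM; under anti-miR-501-3p 2540 and 3607, and 2452 and 3779, against 2974 and 2605.

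The 8 same-numbered pairs of libraries had r of deviations from 0.0283 to 0.174, and 3 were over 0.1. The 24 pairs of different number ran from -0.158 to 0.122, and 1 was over 0.1. The labels do not say what the numbers stand for, and the main fit does not use them as pairs. Whether same-numbered libraries share a culture or a batch was not tested. The replicate block gave 4886, 5729 and 252 called genes in the 3 comparisons, and 189 in the last with the trend removed; each anti-miR library correlated best with its own number in the other anti-miR.

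Values that turned sign, with causes not tested, were as follows. Without the GC and length trend, under anti-miR-409-5p: Apaf1 -0.0038, Casp9 0.067, Bbc3 0.026 and Bcl2l1 0.019; under anti-miR-501-3p: Apaf1 -0.015, Casp9 0.10, Bbc3 0.072, Bcl2l1 0.022 and Mdm2 -0.013. With trend and replicate block: Apaf1 -0.00034 and -0.011, Casp9 0.08 and 0.12, Bbc3 0.073 and 0.12, Bcl2l1 0.016 and 0.018, Mdm2 -0.055 and -0.074, and Bax 0.0052 under anti-miR-409-5p. With a surrogate variable: Casp9 0.063 and 0.11, Bbc3 0.0028 and 0.072, Mdm2 -0.11 and -0.17, and under anti-miR-501-3p Apaf1 -0.0031 and Cdkn1a 0.012. Casp9 was at 0.00037 and 0.023 with the replicate block, and under anti-miR-501-3p at 0.001 with RLE scaling and by DESeq2, 0.0087 with a minimum of 1 CPM and 0.00065 with 2 groups alone. With a library left out, Casp9 ran from -0.062 to 0.024 and from -0.056 to 0.047. No alternative called any of the 9 genes between the anti-miRs.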
